A study of Mus musculus with 40 samples.

Results

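RNA of sorted WT blood progenitors was compared between 2 compartments of mouse bone marrow: multipotent progenitors (MPPs) against hematopoietic stem cells (HSCs), each as total cells, without regard to how often they had divided. The comparison holds 8 of the 40 libraries of the series, 4 of WT MPPs and 4 of WT HSCs, which were taken by genotype, cell type and the absence of H2B-GFP from the sample labels. All came from C57BL/6 mice. The WT mice of these groups are described by their labels as WT only, so whether they carry Mx1-Cre or a floxed Hira allele is not given. The protocol is stated once for the whole cohort: 2 intraperitoneal doses of 20 µg poly(I:C), an RNA that induces interferon and through it Mx1-Cre, then death 1 week after the first dose and a sort of 2500 cells into Trizol. The controls thus share the interferon stimulus with the Hira-deleted (KO) animals that the series was built around. Age, sex, sort gates and whether animals were pooled are not given in the sources used here, nor is it stated that the libraries of a group came from separate mice. The p values therefore measure the spread between these libraries.

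HSCs sit at the top of the blood system: they can renew themselves for life, are mostly out of cycle in an unstressed adult, and part of them lean toward the platelet lineage. MPPs come directly below them. They lose long-term self-renewal, divide more in an unstressed adult, and begin to transcribe genes of the lymphoid or the granulocyte and monocyte lineages. In common sorting schemes both are Kit-positive and Sca-1-positive, and CD150 (Slamf1), CD48, CD34 and FLT3 tell them apart.

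The depth, from whole reads recovered out of the deposited values, was 21.88 to 30.29 M reads for HSCs and 18.29 to 32.35 M reads for MPPs, and 13462 to 13972 genes reached 1 FPKM (fragments per kilobase of gene, scaled to library size) in a library. The 100 most abundant genes took 22.7% to 26.4% of a library. Hira, the gene deleted in the KO animals, was at 1.44, 0.842, 1.63 and 1.07 FPKM in HSC libraries 1 to 4 and at 1.36, 1.09, 1.66 and 1.3 in MPP libraries 1 to 4, so the groups overlapped. Xist was at 58.4 to 86.6 FPKM in all 8 libraries and the Y-linked Ddx3y at or below 0.01. WT MPP replicate 1 stood apart from the other MPP libraries in lineage genes. Its mean log2(FPKM + 1) over 24 erythroid genes was 3.15, against 4.81, 5.41 and 5.07 in MPP replicates 2 to 4. Over 29 granulocyte-monocyte genes it was 4.04, against 4.53, 5.10 and 4.76.

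Genes of surface proteins that common schemes sort on separated the groups mostly along the labels. The sort gates are not given, so which of these differences were set by the sort itself cannot be told. Slamf1, which encodes CD150, was at 5.84, 5.21, 5.29 and 5.98 FPKM in HSC libraries 1 to 4 and at 0.31, 0.305, 0.111 and 0.0757 in the MPP libraries. Flt3, the receptor of FLT3 ligand, was at 3.32, 5.73, 4.42 and 5.11 FPKM in HSCs and at 52.3, 51.5, 52.4 and 60.4 in MPPs. These genes did not overlap between the groups, and they differed by -2.46 ± 0.14 (Slamf1) and 3.31 ± 0.14 (Flt3) on the log2(FPKM + 1) scale, MPP minus HSC, ± SE, with limma adjusted p of 8.83e-07 and 1e-07. In all, 9 of 14 tested sort marker genes were higher in MPPs and 3 were lower. The other two of these 14 were Kit and Thy1: Kit, the stem cell factor receptor, had a mean of 63.3 ± 13.9 FPKM (SD, n = 4) in HSCs and 65.4 ± 11.9 in MPPs (adjusted p = 0.873). Over all 13880 tested genes, 7.35% were higher in MPPs and 7.44% were lower.

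Part of the sort marker set went against the usual order of the labels. Procr, which encodes the stem cell marker EPCR, was at 5.93, 10.1, 6.37 and 11.8 FPKM in HSCs and at 12.4, 18.2, 12.4 and 15.9 in MPPs (0.75 ± 0.21, adjusted p = 0.0326). That call was lost without HSC replicate 1 or 3 or MPP replicate 2 or 4, at adjusted p of 0.0731 to 0.0947, and in 3 other fits. Ly6a, which encodes Sca-1 and is also induced by interferon, was at 58.6 to 70.6 FPKM in HSCs and at 130 to 188 in MPPs (1.29 ± 0.13, adjusted p = 8.49e-05). Of the genes set down as HSC markers, Slamf1 and Vwf were lower in MPPs, Procr and Hlf were higher in MPPs, and Mecom (3.56 against 3.11 FPKM) and Fgd5 (1.95 against 2.11) did not pass the test. Of those set down as MPP markers, Flt3, Cd48, Cd34 and Dntt were higher in MPPs. Slamf1, Vwf and low Flt3 and Cd48 thus went with the HSC label here, while Procr, Hlf and Ly6a did not.

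**Figure D1:**
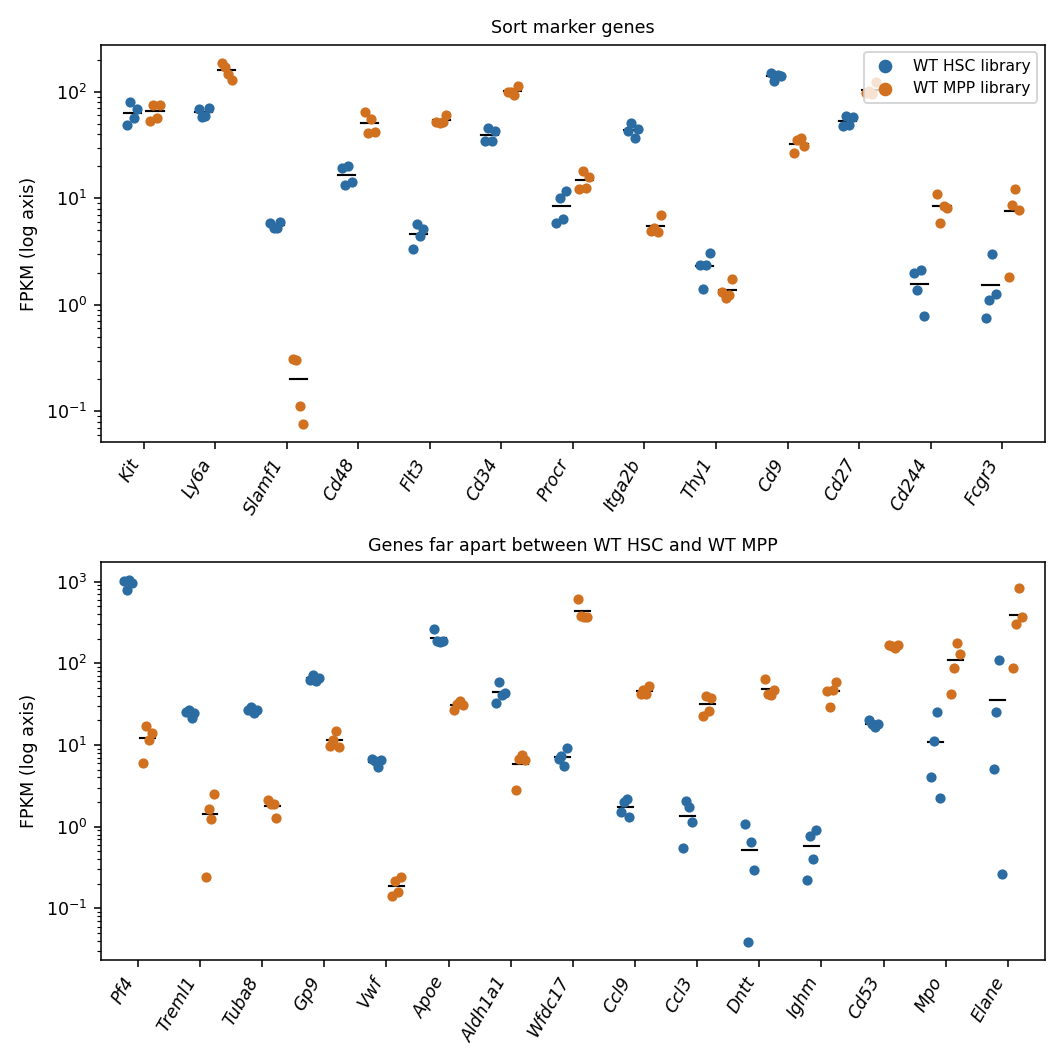
FPKM of single genes on a log axis, with 1 point per library, WT HSC in blue and WT MPP in orange, and a bar at the mean of 4 libraries. Points of Slamf1, Flt3, Itga2b, Pf4 and Vwf lie far apart by group, while those of Kit overlap. In the lower panel Elane spreads from 0.264 to 111 in HSC libraries and overlaps the MPP libraries.

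Across the genome, 2052 of 13880 tested genes passed at a limma adjusted p under 0.05, which is 14.8%. Of these, 1020 were higher in MPPs and 1032 lower. At least a 2-fold difference on the log2(FPKM + 1) scale was seen for 578 of them, 4.16% of those tested (301 higher in MPPs and 277 lower). The 8 values fell into groups without overlap for 2846 genes, 20.5%. The median difference of all tested genes was -0.005. In these sorted populations a lower level can mean fewer cells that express a gene or less of its RNA per cell, and these cannot be told apart.

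**Figure D2:**
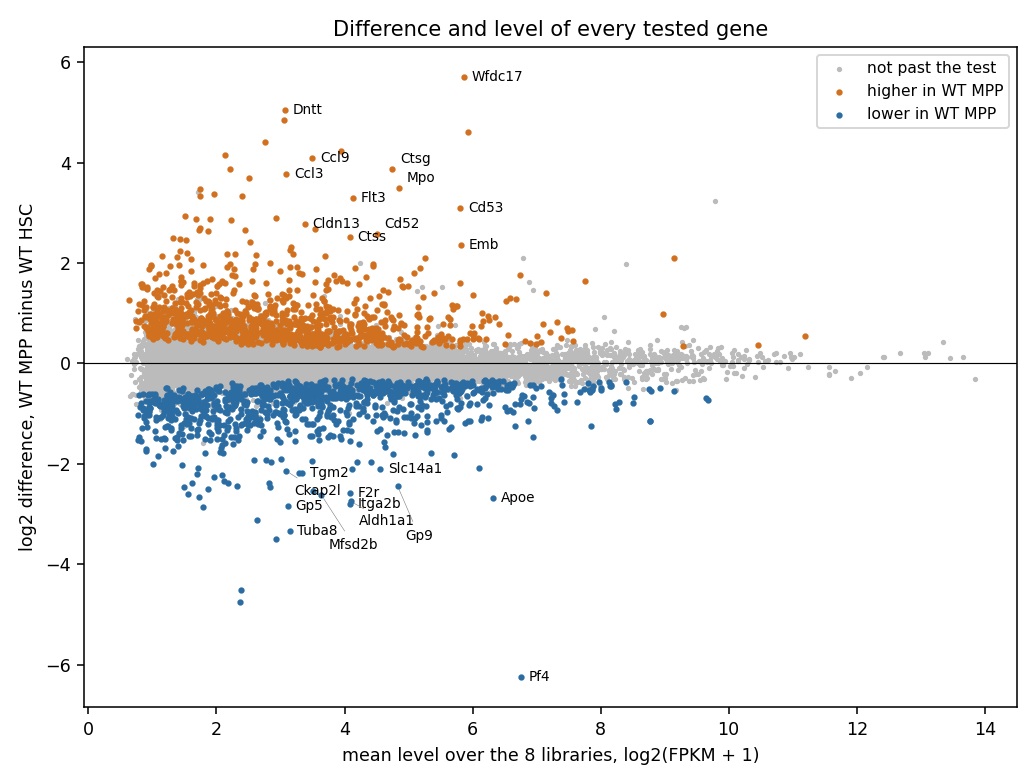
Log2 difference (WT MPP minus WT HSC) of each tested gene against its mean level over the 8 libraries, with genes past the test in orange (higher in MPP) and blue (lower in MPP). Labels name the 12 leading genes each way; Pf4 lies lowest at -6.25 and Wfdc17 highest at 5.70.

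Genes of platelets and megakaryocytes were mostly lower in MPPs. Of 25 tested members of the megakaryocyte list, 23 were lower in MPPs and 1 was higher, with a median difference of -2.08. Pf4, the platelet chemokine PF4, led all genes: it was at 1010, 789, 1031 and 966 FPKM in HSC libraries 1 to 4 and at 5.95, 17.2, 11.4 and 13.9 in MPP libraries (-6.25 ± 0.24, adjusted p = 5.96e-08). No MPP library came near an HSC library. Gp1bb, a subunit of the platelet receptor for von Willebrand factor, was at 20.2 to 28.1 FPKM in HSCs and at 0 to 0.202 in MPPs, where it rested on 0 to 10 reads (-4.52 ± 0.14). Vwf, the factor itself, was at 6.75, 6.31, 5.37 and 6.55 FPKM in HSCs against 0.14, 0.218, 0.161 and 0.242 in MPPs (-2.60 ± 0.13).

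Other members ran the same way. Treml1, a receptor of platelet granules, had a mean of 24.7 FPKM in HSCs and 1.41 in MPPs, and Tuba8, an alpha tubulin, 27 and 1.8. Itga2b and Itgb3, which form the fibrinogen receptor of platelets, differed by -2.79 ± 0.14 and -2.47 ± 0.26. Gp5 and Gp9, partners of Gp1bb, had means of 22.1 against 2.28 FPKM and of 65.3 against 11.4. F2r, a thrombin receptor, fell from 41.1 to 6.04. The exception was Nbeal2, a protein of platelet granule formation, at 4.46 to 6.64 FPKM in HSCs and 7.13 to 10.9 in MPPs (0.66 ± 0.16, adjusted p = 0.019). Its call was lost in 5 fits, those without HSC replicate 1 or 3 or MPP replicate 2 or 4 and that rescaled to one total. Genes of late platelet formation were near the floor in both groups: Tubb1 had a mean of 0.633 FPKM in HSCs and 0.0462 in MPPs, and Gp6 0.0138 and 0.00716.

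The megakaryocyte regulators went along in part. Gata1, a factor of erythroid and megakaryocyte fate, was at 31.9, 38.5, 30.3 and 39.7 FPKM in HSCs and at 1.81, 10.7, 15.5 and 7.97 in MPPs (-2.10 ± 0.42, adjusted p = 0.00654). Gfi1b, a repressor in the same lineages, was at 39.9 to 54.1 FPKM in HSCs and 4.88 to 25.6 in MPPs (-1.80 ± 0.37). Fli1, an ETS factor of platelet genes, had means of 63.5 and 35 FPKM.

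The promoter of Pf4, the gene with the largest difference, is shown because GATA1 is known to drive it. It was picked after its values were seen. The window covers 250 bases before to 50 after the start site, from RefSeq on GRCm38.p6, chr5:90772185-90772484 on the + strand, 5′ to 3′, with the GATA motif (AGATAA or TGATAA on either strand) in capitals. It holds 1 match, 37 bases after the start site, and none to the ETS motif searched with it (CAGGAAG or CCGGAAG, either strand).
Pf4: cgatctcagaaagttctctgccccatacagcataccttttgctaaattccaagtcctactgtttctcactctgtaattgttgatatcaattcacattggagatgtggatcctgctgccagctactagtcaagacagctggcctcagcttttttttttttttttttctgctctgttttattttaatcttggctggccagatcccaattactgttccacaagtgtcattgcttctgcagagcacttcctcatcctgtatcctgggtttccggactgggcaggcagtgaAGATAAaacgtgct
The windows of Gp1bb and Treml1, next in size of the difference on the megakaryocyte list, are not printed and hold neither motif. Among the 24 promoters in the table that belong to megakaryocyte list genes, 29.2% hold the GATA motif and 16.7% the ETS motif, against 18.6% and 20.9% of all 32851 promoters.

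Genes known from HSC signatures were mostly lower in MPPs, but not as a block. Of 29 tested members of a list of HSC-enriched genes outside the surface and transcription factor lists, 20 were lower and 2 higher, with a median of -0.99. Of 27 surface and receptor genes, 17 were lower and 6 higher (median -0.62). Of 32 HSC transcription factors, 10 were lower and 5 higher (median -0.19). Without HSC replicate 2 or 4, 11 of the surface genes were lower, and without HSC replicate 3, 3 of the factors were higher. Several of these genes are also on the megakaryocyte list (among them Itga2b, Itgb3, Cd9, Vwf, Mmrn1 and Fli1), so the lists are not separate evidence.

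Among the enriched genes, Aldh1a1, an enzyme of retinoic acid synthesis, was at 33, 59.5, 41.3 and 43.5 FPKM in HSCs and at 2.83, 6.66, 7.56 and 6.57 in MPPs (-2.75 ± 0.25). Apoe, the lipid carrier apolipoprotein E, was at 182 to 262 FPKM in HSCs and 26.8 to 34 in MPPs (-2.68 ± 0.13). Neither gene overlapped between the groups. Sdpr, a caveolar protein also called cavin 2, was at 21.5 to 28.4 FPKM in HSCs (2021 to 2359 reads) and listed at 0 in all 4 MPP libraries. Against a floor of 3 reads over the MPP group it was at least 2780-fold higher in HSCs. Tgm2, a transglutaminase, had a mean of 20.6 FPKM in HSCs and 3.79 in MPPs.

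Of the transcription factors, Gata2, a regulator of HSC maintenance, fell from 36.4 to 14.1 on average, Mycn from 49.5 to 23.3 and Meis1, a partner of HOX proteins, from 27.7 to 18. The opposite order held for Hlf, a factor tied to stem cell identity, at 22.4, 31.6, 30.5 and 30.8 FPKM in HSCs and 46.9, 69.6, 51.8 and 51.1 in MPPs (0.90 ± 0.15, adjusted p = 0.002). Hoxa9 was at 12 to 15.5 against 22.6 to 27.3 (0.81 ± 0.12), and Bcl6, a repressor used in lymphocytes, at 0.53 to 1.02 against 2.12 to 2.94. Thus Meis1 was lower in MPPs while Hoxa9 was higher. Of 12 tested HOX genes and partners, 3 were lower and 2 higher. The higher count was 1 without HSC replicate 1, 2 or 4 or MPP replicate 2 or 4 and 3 without MPP replicate 1, and the lower count was 2 or 3.

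Of the surface genes, Tgfbr3, a co-receptor of TGF-beta, had a mean of 8.22 FPKM in HSCs and 0.996 in MPPs, and Cd9, a tetraspanin, 141 and 32.6. Cd34 was at 34.2 to 45.6 FPKM in HSCs and 94.1 to 114 in MPPs (1.36 ± 0.12). Vldlr, a lipoprotein receptor (1.22 ± 0.22), Calcrl, the receptor of adrenomedullin (1.25 ± 0.17), and Alcam, an adhesion molecule (1.08 ± 0.18), were also higher in MPPs. The imprinted genes Grb10, a brake on growth factor receptors, and Ndn, a growth suppressor, were lower in MPPs, with means of 7.47 against 2.11 FPKM and 6.58 against 2.21. They were the 2 of 5 tested imprinted genes that passed.

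Lymphoid priming genes were mostly higher in MPPs. Of 21 tested members 19 were higher in MPPs and 0 were lower, with a median of 1.56, and all 21 had a positive difference. Dntt, the DNA polymerase that adds bases at antigen receptor joints, was at 1.08, 0.0388, 0.657 and 0.293 FPKM in HSCs and at 63.4, 41.6, 40.4 and 47.7 in MPPs (5.05 ± 0.21, adjusted p = 1e-07). Ighm, the constant region of IgM, whose unrearranged locus is transcribed early, was at 0.223 to 0.918 FPKM in HSCs and 29 to 58.9 in MPPs (4.86 ± 0.21). Cd53, a tetraspanin of white cells, was at 16.4 to 20.3 against 154 to 170 FPKM (3.10 ± 0.10), and Cd52 at 5.8 to 9.66 against 41.6 to 78.8 (2.57 ± 0.21).

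Genes of committed lymphoid cells stayed low. Il7r, the interleukin 7 receptor, had means of 0.11 FPKM in HSCs and 0.804 in MPPs and was not tested for its low level, and Rag1, the recombinase, was at 0.0485 and 0.0709. Of the B cell list, 1 of 4 tested genes passed, the surrogate light chain Igll1 (0.424 against 2.12 FPKM). Its summed level over 10 of 14 genes listed in both tables was 26.4 to 32.4 FPKM in HSCs and 32.4 to 42.2 in MPPs, most of it Cd79b, at 21.9 to 30.1 in all 8 libraries. Pax5 was at or below 0.131. Of the T and NK cell list, Lck, a kinase of T cell signalling, was higher in MPPs (4.28 against 9.41 FPKM), the summed level over 14 of 18 genes was 5.46 to 9.03 FPKM in HSCs and 13.3 to 19.7 in MPPs, and Cd3d was at 0 in 6 of the 8 libraries. The part of such cells in the lymphoid differences was not tested.

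Granulocyte and monocyte genes were also higher in MPPs, with a wide spread between libraries. Of 29 tested members 24 were higher and 0 were lower, at a median of 1.46. Mpo, the peroxidase of primary granules, was at 4.06, 11.3, 25.5 and 2.23 FPKM in HSC libraries 1 to 4 and at 42, 86.5, 179 and 129 in MPP libraries (3.50 ± 0.60, adjusted p = 0.00258). Ctsg, the granule protease cathepsin G, was at 3.94, 10.8, 22.2 and 0.795 against 40.3, 114, 231 and 99.5 (3.87 ± 0.70). Both rank the libraries alike at the top: replicate 3 was highest in HSCs and in MPPs.

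Elane, neutrophil elastase, overlapped between the groups, at 5.02, 25.4, 111 and 0.264 FPKM in HSCs and 87.2, 301, 821 and 369 in MPPs (4.62 ± 1.14, adjusted p = 0.019), and the call was lost without HSC replicate 1, MPP replicate 2 or MPP replicate 3 (adjusted p of 0.0532 to 0.0542). Less scattered were 2 regulators named after their values were seen: Cebpa, a factor of myeloid commitment, at 0.959 to 2.3 FPKM in HSCs against 6.91 to 12 in MPPs (2.19), and Gfi1, a repressor of granulocyte fate, at 0.246 to 1.43 against 10.1 to 12.8 (2.86). Csf3r, the receptor of G-CSF, was at 10.3 to 16.4 against 32.6 to 45.6 FPKM (1.46 ± 0.16).

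Genes of mature neutrophils passed the test in 2 of 13 tested cases, S100a8 and Pglyrp1, a peptidoglycan-binding protein, both higher in MPPs. Of the 13 differences 12 were positive, with a median of 1.46, and the libraries of a group spread widely. The summed level of all 16 was 180 to 1811 FPKM in HSC libraries and 1319 to 3985 in MPP libraries. S100a8, a calcium-binding protein of neutrophils, was at 83.6, 190, 814 and 428 FPKM in HSCs and 652, 1017, 1947 and 1458 in MPPs (2.10 ± 0.59, adjusted p = 0.034), a call lost in 7 fits, among them those without HSC replicate 1 or 2 or MPP replicate 2, 3 or 4. None of the 16 genes was at 0 in all 8 libraries. The count of neutrophil genes past the test was 7 without HSC replicate 3, 5 without MPP replicate 1, and 1 without HSC replicate 1 or 2 or MPP replicate 2, 3 or 4. The part of such cells, or of their free RNA, in the granulocyte-monocyte difference was not tested. Without MPP replicate 1, 23 of 27 tested granulocyte-monocyte genes were higher in MPPs, and without HSC replicate 3, 24 of 28.

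**Figure D3:**
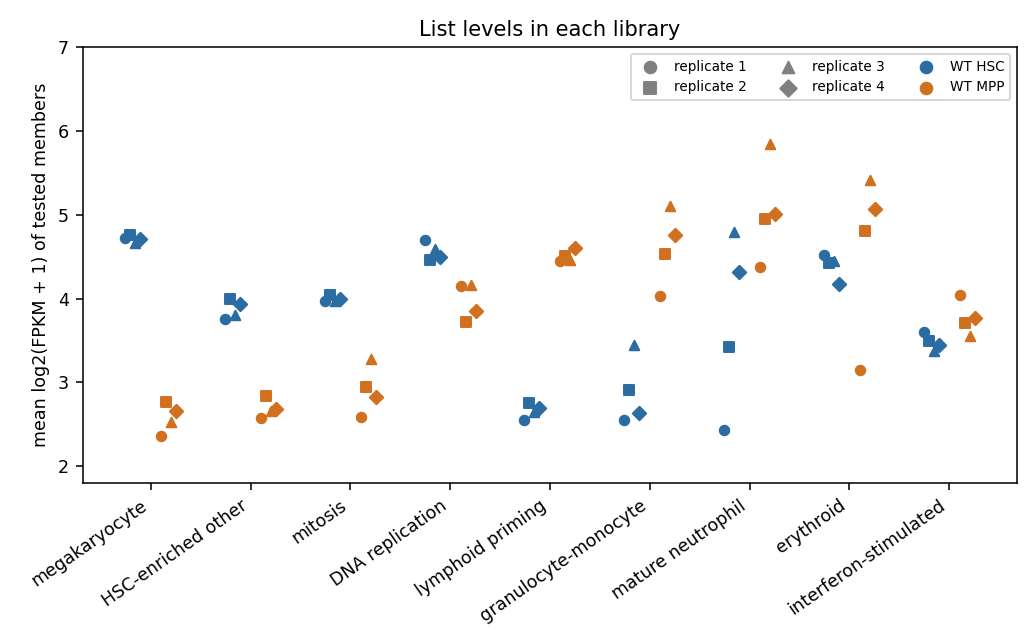
Mean log2(FPKM + 1) of the tested members of 9 gene lists in each library, WT HSC in blue and WT MPP in orange, with the marker shape giving the replicate number. Megakaryocyte, HSC-enriched, mitosis and lymphoid levels do not overlap between the groups, while mature neutrophil levels spread from 2.43 to 5.84 and erythroid levels of MPP replicate 1 fall to 3.15.

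Erythroid genes passed the test in both directions. Of 24 tested members 5 were lower in MPPs, 4 were higher and 15 did not pass. Lower in MPPs were Gata1 and Gfi1b as above, Icam4, a red cell adhesion molecule, at 38.1 to 45.4 FPKM in HSCs against 5.4 to 14.4 in MPPs (-1.96 ± 0.22), and Epor, the erythropoietin receptor, at 14.2 to 17.2 against 2.39 to 14.2 (-1.20 ± 0.34, adjusted p = 0.0371, lost in 8 fits, 6 of them with 1 library left out). Higher in MPPs was Rhd, a blood group protein of red cells, at 2.27, 2.54, 5.08 and 2.61 FPKM in HSCs and 3.78, 23.5, 46.8 and 27.3 in MPPs (2.32 ± 0.56, adjusted p = 0.0165). MPP replicate 1 lay within the HSC range.

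These calls turned on single libraries. The number of erythroid genes higher in MPPs was 9 without MPP replicate 1, 0 without MPP replicate 2 and 1 without MPP replicate 3 or 4, 2 without HSC replicate 1, 2 or 3 and 1 without HSC replicate 4, while 4 or 5 were lower in each of these fits. Globin RNA, which is abundant in red cells and their precursors, did not follow the labels: Hba-a1 was at 821, 224, 201 and 98.1 FPKM in HSCs and at 19.7, 482, 842 and 1476 in MPPs (adjusted p = 0.836). The summed level of all 30 erythroid genes was 1266 to 3639 FPKM in HSC libraries and 618 to 6011 in MPP libraries. The part of red cell precursors in these values was not tested.

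Genes of cell division were lower in MPPs than in HSCs 1 week after poly(I:C). Of 56 tested mitosis genes 51 were lower in MPPs and 0 were higher, with a median of -1.13. Of 52 tested genes of DNA replication 31 were lower and 0 higher, with a median of -0.58. The mitosis count ranged from 49 to 51 when each library was left out in turn and the replication count from 21 to 38. Both lists had separate levels by group: mean log2(FPKM + 1) over the mitosis genes was 3.97 to 4.04 in HSC libraries and 2.59 to 3.28 in MPP libraries, and over the replication genes 4.46 to 4.70 and 3.72 to 4.16.

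Ckap2l, a spindle protein, led the mitosis genes at 19.6, 14.9, 17.7 and 15.8 FPKM in HSCs and 1.52, 2.89, 5.27 and 3.4 in MPPs (-2.14 ± 0.23, adjusted p = 0.000129). Ccnb1, the cyclin that starts mitosis, was at 28.7, 33.9, 29.1 and 35.4 FPKM in HSCs and at 5.58, 11.3, 14.9 and 9.24 in MPPs (-1.61 ± 0.22). Pbk, a mitotic kinase, was at 68.1 to 79.2 against 16.6 to 29.5 (-1.78 ± 0.16), and Cdc25c, the phosphatase that activates the mitotic kinase, had means of 7.43 and 1.97. None of these overlapped between the groups. Of the 56 genes 5 did not pass, among them Pttg1, the securin of chromosome separation, at 17.1 and 18.5 FPKM.

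Among replication genes, Tk1, thymidine kinase, was at 26.1, 23.1, 25.3 and 26.1 FPKM in HSCs and at 7.86, 7.86, 12.3 and 10.2 in MPPs (-1.33 ± 0.14, adjusted p = 0.000124). Prim1, a primase subunit, was at 31.8 to 38.4 against 12.2 to 20.2 (-1.06 ± 0.15), and Ccne2, the cyclin of S phase entry, had means of 7.42 and 3.06. Tyms, thymidylate synthase, had means of 33.4 and 16. Of the replication-linked histone chaperones, Asf1b fell from 40.7 to 14.6 FPKM (-1.43 ± 0.14), Chaf1a from 6.42 to 3.35 and Chaf1b from 18.6 to 12.6. Chaf1a and Chaf1b are also on the replication list, so they are not separate evidence. Nasp, another histone chaperone, had means of 14.3 and 11.1 FPKM and did not pass. The 2 genes that encode H3.3, H3f3a (67.2 against 66) and H3f3b (544 against 442), and the HIRA partners Ubn1 (12.9 against 13.1) and Cabin1 (8.6 against 10.1) did not pass. Of 16 tested chaperone and H3.3 genes 5 were lower in MPPs, and 2 were lower without HSC replicate 4 and 3 without MPP replicate 2.

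Promoters of the leading mitosis and replication genes are shown because the members of each list moved together. They were taken in order of the size of the difference. Left out were Pbk, Cdc25c and Ccne2, which had no row in the table or lay on a chromosome excluded from the selection. For replication the printed order stops before Tyms. Each runs 5′ to 3′ over 300 bases (250 before and 50 after the start site), from RefSeq on GRCm38.p6. In the mitosis promoters capitals mark the cell cycle homology region (TTTGAA or TTCGAA, either strand) and the CCAAT box (CCAAT, either strand), which are known from promoters active late in the cycle. The windows are chr2:129297163-129297462 on the - strand for Ckap2l, chr13:100786437-100786736 on the - strand for Ccnb1 and chr2:164769679-164769978 on the + strand for Ube2c, a ubiquitin-conjugating enzyme of mitotic exit.
Ckap2l: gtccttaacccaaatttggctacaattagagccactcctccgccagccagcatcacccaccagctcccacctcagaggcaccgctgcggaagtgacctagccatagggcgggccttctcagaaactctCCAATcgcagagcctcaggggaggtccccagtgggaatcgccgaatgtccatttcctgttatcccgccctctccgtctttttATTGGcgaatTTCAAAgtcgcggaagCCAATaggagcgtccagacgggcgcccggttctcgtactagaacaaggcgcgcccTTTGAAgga
Ccnb1: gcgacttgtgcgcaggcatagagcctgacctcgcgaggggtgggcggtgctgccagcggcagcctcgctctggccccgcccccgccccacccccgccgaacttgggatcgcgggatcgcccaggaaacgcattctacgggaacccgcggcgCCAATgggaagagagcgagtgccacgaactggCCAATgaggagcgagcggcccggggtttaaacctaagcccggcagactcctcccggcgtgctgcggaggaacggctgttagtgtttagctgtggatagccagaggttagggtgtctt
Ube2c: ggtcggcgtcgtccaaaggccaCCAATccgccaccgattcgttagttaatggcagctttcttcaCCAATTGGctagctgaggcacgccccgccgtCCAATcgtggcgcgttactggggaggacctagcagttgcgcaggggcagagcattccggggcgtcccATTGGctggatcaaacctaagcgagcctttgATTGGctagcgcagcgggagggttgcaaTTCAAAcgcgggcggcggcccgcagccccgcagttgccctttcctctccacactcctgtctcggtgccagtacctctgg
In the replication promoters capitals mark an E2F motif (TTTCGCGC, TTTGGCGC, TTCCCGCC, TTTCCCGC or TTGGCGGG, either strand; the last can overlap a CCAAT box and the forms can overlap each other) and the CCAAT box. The windows are chr11:117825965-117826264 on the - strand for Tk1 and chr10:128014965-128015264 on the + strand for Prim1.
Tk1: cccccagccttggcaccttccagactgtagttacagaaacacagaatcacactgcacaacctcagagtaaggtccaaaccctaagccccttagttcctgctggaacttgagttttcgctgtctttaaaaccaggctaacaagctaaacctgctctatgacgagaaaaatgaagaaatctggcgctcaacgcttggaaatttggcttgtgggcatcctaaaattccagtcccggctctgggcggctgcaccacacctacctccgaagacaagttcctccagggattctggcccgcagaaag
Prim1: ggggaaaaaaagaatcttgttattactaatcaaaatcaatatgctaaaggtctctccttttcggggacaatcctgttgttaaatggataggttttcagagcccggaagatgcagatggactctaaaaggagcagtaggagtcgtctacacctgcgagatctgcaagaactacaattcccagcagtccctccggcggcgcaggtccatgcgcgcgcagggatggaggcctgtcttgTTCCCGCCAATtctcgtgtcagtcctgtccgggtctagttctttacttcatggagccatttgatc
The Ckap2l window holds 2 cell cycle homology matches and 3 CCAAT boxes, that of Ccnb1 2 CCAAT boxes, and that of Ube2c 1 cell cycle homology match 29 bases before the start site and 6 CCAAT boxes. In Prim1 the E2F match begins 15 bases before the start site and overlaps the CCAAT box, and in Tk1 none of these letters occur in the window. The window of Tyms, next in order among the replication genes, is not printed and holds none of them either. Of the 50 promoters of mitosis list genes (48 of 58 genes matched), 78% hold the cell cycle homology region, against 19.2% of all 32851 promoters, and 76% the CCAAT box, against 37.4%. Of the 49 promoters of replication list genes (42 of 53 matched), 51% hold the E2F motif, against 4.29% of all. These shares describe the lists and say nothing of the difference between MPPs and HSCs.

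Inhibitors and brakes of the cycle gave a mixed picture. Of 17 tested genes of quiescence and CDK inhibition 3 were higher in MPPs and 1 was lower (5 higher without MPP replicate 1). Tob1, an antiproliferative protein, was at 4.03 to 7.21 FPKM in HSCs and 7.81 to 12.7 in MPPs (0.99 ± 0.18), and Gas6, a ligand of TAM receptors, at 0.948 to 2 against 4.04 to 6.02 (1.20 ± 0.17). Cdkn2d, an inhibitor of CDK4 and CDK6, was at 51.7 to 65.7 against 27.9 to 44.6 (-0.75 ± 0.16). Cdkn1c, p57, a marker of dormant HSCs, had means of 1.44 and 0.722 FPKM and did not pass, and Cdkn1b, p27, had 8.04 and 9.41. Myc was at 84.4 and 103 FPKM and did not pass, while Mxd4, a repressor that competes for its partner MAX, was higher in MPPs (4.4 against 7.78, 0.70 ± 0.12). Cyclin genes of G1 differed by less: Ccnd2 had means of 42.5 and 33.8 (-0.32 ± 0.10, adjusted p = 0.0445), a call lost when any of the 8 libraries was left out.

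Genes of the BCL2 family were called in both directions. Bcl2l1, which encodes BCL-XL, was at 8.42 to 10.6 FPKM in HSCs and 3.4 to 5.11 in MPPs (-1.02 ± 0.13, adjusted p = 0.000449), and Bcl2 at 9.34 to 11.3 against 4.97 to 6.74 (-0.79 ± 0.12). Bmf, a killer of the same family, was at 0.00799 to 0.488 against 1.02 to 1.47 (0.85 ± 0.18). Mcl1, a survival gene like Bcl2, was at 26.5 to 27.8 against 31.3 to 47.6 (0.43 ± 0.13, limma adjusted p = 0.04055). That call was lost when any library but MPP replicate 4 was left out. In all, 4 of 21 tested apoptosis genes were higher in MPPs and 2 lower, the latter near the 7.44% of all tested genes. The first count was 0 without MPP replicate 2 or 3, 1 without HSC replicate 1, and 2 without HSC replicate 3 or 4 or MPP replicate 1 or 4. Of 18 tested p53 targets 2 were higher, led by Trp53inp1, a stress protein (3.52 against 8.08 FPKM), and 1 was lower, the death receptor Fas (2.58 against 0.964). These p53 target counts are near the share over all tested genes, 7.35% higher and 7.44% lower. The higher count was 4 without MPP replicate 1 and 1 without HSC replicate 1. The lower count was 2 without MPP replicate 1. The call of Fas was lost without HSC replicate 3 or 4 or MPP replicate 3 or 4 (adjusted p of 0.0523 to 0.0612 by limma), and that of Trp53inp1 without MPP replicate 2 (adjusted p = 0.0505).

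A run of neighbouring chemokine and Wfdc genes on chromosome 11 held several of the genes highest in MPPs, a pattern noticed after the values were seen. Wfdc17, a small secreted protein of the whey acidic family (chr11:83703991-83706268, GRCm38), was at 6.69, 7.36, 5.54 and 9.16 FPKM in HSCs and at 603, 378, 367 and 372 in MPPs (5.70 ± 0.18, adjusted p = 1.19e-08). Ccl9 (chr11:83572919-83578636), a chemokine of myeloid cells, was at 1.33 to 2.2 against 41.6 to 52.1 FPKM (4.09 ± 0.13), and Ccl3 (chr11:83647844-83649355), another, at 0.548 to 2.05 against 22.6 to 39.8 (3.79 ± 0.23). From Ccl5 to Wfdc21, 10 of the 11 genes listed in both tables were tested, 6 were higher in MPPs and 0 were lower. The others of the 6 were Wfdc18 (0.219 against 11.7 FPKM), Ccl4 (17.8 against 66.4) and Ccl5 (1.9 against 6.15), while Ccl6 (0.928 against 2.36) and Wfdc21 (11.7 against 44) did not pass. Genes on both strands were among those that were higher.

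Receptors and antigen presentation leaned to the MPP side. Of 28 tested cytokine receptor genes 10 were higher in MPPs and 3 lower. Il10ra, a chain of the interleukin 10 receptor, was at 0.119 to 0.768 FPKM in HSCs and 3.56 to 8.12 in MPPs (2.20 ± 0.22), and Il1r1, the interleukin 1 receptor, at 1.13 to 1.68 against 6.66 to 9.65 (1.98 ± 0.14). Of 10 tested genes of MHC class II presentation 7 were higher and 0 lower. Ctss, the protease that trims the invariant chain, was at 4.98 to 7.94 against 34.9 to 45.7 FPKM (2.51 ± 0.15), and H2-Ob, a modulator of peptide loading, at 8 to 13.3 against 29 to 45.4 (1.73 ± 0.17). The MHC class II count was 3 without HSC replicate 1 or MPP replicate 3, 4 without HSC replicate 3 or 4 or MPP replicate 2, and 3 after rescaling to one total, with 0 lower in each. MHC class I genes showed no such lean: 0 of 20 were higher and 1 was lower, Pdia3, a chaperone of peptide loading (178 against 119 FPKM).

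Interferon-stimulated genes differed for a minority of members. Of 49 tested genes 12 were higher in MPPs and 0 were lower, with a median of 0.30. Ifi27l2a was at 8.79, 1.43, 4.12 and 3.81 FPKM in HSCs and at 31.7, 15, 12.7 and 15.8 in MPPs (1.92 ± 0.38, adjusted p = 0.0057), and Rtp4, a chaperone of receptors, at 19.9 to 32.8 against 39.5 to 72.8 (0.96 ± 0.21). MPP replicate 1 was highest in both genes, and the list level there was 4.05 against 3.55 to 3.77 in the other MPP libraries. The count was 8 without MPP replicate 1, 5 without HSC replicate 3 and 7 without HSC replicate 4 or MPP replicate 4. Ifnar2, a chain of the type I interferon receptor, was at 11.2 to 12.8 against 19.9 to 23.3 FPKM (0.78 ± 0.10), and 5 of 11 receptor and Jak genes were higher. That count was 3 without HSC replicate 1, 3 or 4 or MPP replicate 2.

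Early response genes also leaned to MPPs. Of 19 tested, 6 were higher and 1 was lower. Socs3, a feedback inhibitor of cytokine signals, was at 0.604 to 2.05 FPKM in HSCs and 3.34 to 5.94 in MPPs (1.40 ± 0.23), Dusp2, a phosphatase of MAP kinases, at 17.5 to 27 against 44.7 to 71.5 (1.33 ± 0.17), and Zfp36, a protein that destabilises mRNA, at 5.13 to 7.81 against 14.8 to 19.4 (1.19 ± 0.14). Egr1, a factor linked to HSC quiescence, was lower in MPPs (3.39 against 2.08 FPKM, adjusted p = 0.0304). Its call was lost in 6 fits, 5 of them with 1 library left out.

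Adhesion genes passed the test in both directions. Of 23 tested, 8 were higher in MPPs and 7 lower. The second count was 2 without HSC replicate 4 and 4 without HSC replicate 1 or 2 or MPP replicate 2 or 3. Esam, a junction protein of HSCs and endothelium, was at 45.2 to 68.2 FPKM in HSCs and 14.6 to 23.4 in MPPs (-1.43 ± 0.16). Integrin genes of white cells ran the other way: Itgal at 1.05 to 1.99 against 4.91 to 7.14 (1.55 ± 0.16), Itgam at 0.42 to 0.683 against 2.38 to 3.83 (1.47 ± 0.16) and Itgb7 at 2.04 to 3.93 against 6.29 to 12.2 (1.23 ± 0.22).

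**Figure D4:**
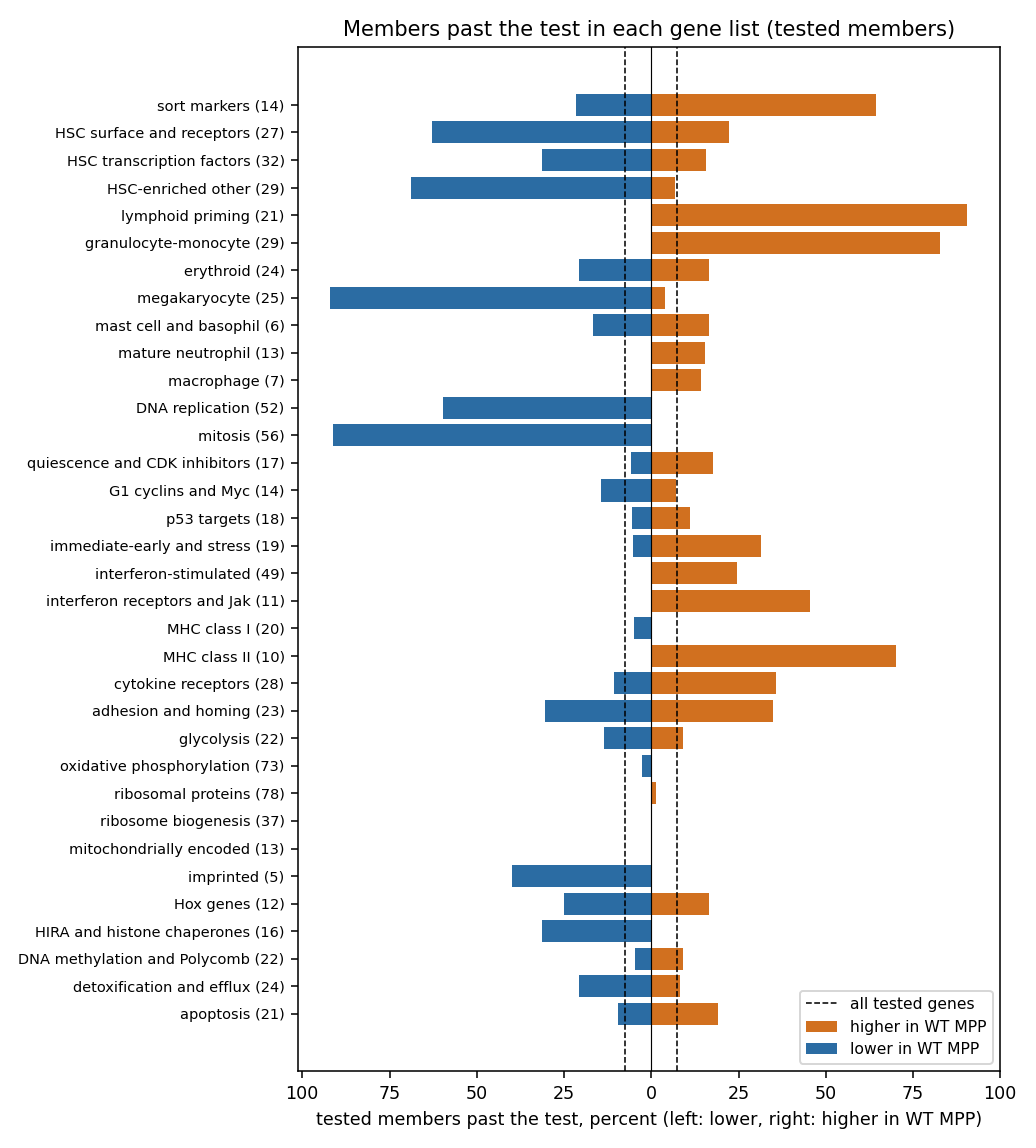
Share of the tested members of gene lists with 5 or more tested that passed the test, lower in WT MPP to the left in blue and higher to the right in orange, with the number tested in brackets; dashed lines give 7.44% and 7.35% of all tested genes. Megakaryocyte, mitosis and lymphoid priming lists reach farthest, while oxidative phosphorylation, ribosomal and mitochondrially encoded lists stay under the dashed lines.

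Few genes of oxidative phosphorylation or of ribosomes passed the test. Of 73 tested nuclear genes of oxidative phosphorylation 2 were lower in MPPs, Sdha and Atp5b, 1 of 78 ribosomal protein genes was higher, Rps9, and 0 of 37 ribosome biogenesis genes and 0 of 13 mitochondrially encoded genes passed by limma (5 and 0 at an unadjusted p under 0.05, and 1 and 0 by limma-voom on recovered reads). The call of Sdha was lost without any 1 library other than MPP replicate 1, that of Atp5b without any other than MPP replicate 1 or 4, and that of Rps9 without any other than MPP replicate 4. Without MPP replicate 1, 5 biogenesis genes were lower. Npm1, of the biogenesis list, had means of 455 and 400 FPKM, and mt-Co3 of 8001 and 9328. Of 22 glycolysis genes 3 were lower and 2 higher, where 7.44% of all tested genes were lower and 7.35% higher. The higher count was 1 without HSC replicate 1, 3 or 4 or MPP replicate 1 or 4, and the lower count ranged from 2 to 4 with a library left out. Ldha, the lactate dehydrogenase chain of glycolytic cells, was at 384 to 450 FPKM in HSCs and 186 to 265 in MPPs (-0.91 ± 0.12), and Ldhb, the chain of oxidative cells, at 36.4 to 44.4 against 53.6 to 68.6 (0.56 ± 0.11).

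Detoxification genes held single strong members, and few DNA methylation and Polycomb genes passed the test. Gstm2, a glutathione transferase, was at 7.41 to 8.12 FPKM in HSCs and 0.098 to 0.826 in MPPs (-2.51 ± 0.17). The glutathione transferase genes Gstm1 (41.5 to 71.5 against 76 to 139) and Mgst1 (5.8 to 8.19 against 21.2 to 34.9) were higher in MPPs. In all 5 of 24 tested were lower and 2 higher. The first count was 3 without HSC replicate 3 and the second 4 without MPP replicate 1. Dnmt1, which copies DNA methylation after replication, was at 28.3 to 36.6 against 16.6 to 25.3 FPKM (-0.60 ± 0.14). It was the 1 of 22 methylation and Polycomb genes that was lower, and 2 were higher, Ring1 among them. Over all tested genes 7.44% were lower and 7.35% higher, so these counts are near that share. The higher count was 0 without HSC replicate 4 or MPP replicate 2 or 3 and 1 without HSC replicate 1, 2 or 3 or MPP replicate 1, and the lower count was 2 without MPP replicate 1 or 3.

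Further lists held markers of other cell types. Of 7 tested genes of the macrophage list 1 passed, Cd68, which was higher in MPPs (8.08 against 17.4 FPKM). The median difference of the 7 was 0.10, with 5 positive and 2 negative. The summed level, which includes Cd68, was 24.1 to 27.8 FPKM in HSC libraries and 30.3 to 46.3 in MPP libraries. Marco was at 0 in all 8. The stroma and endothelium list summed to 3.44 to 4.97 and 7.17 to 9.9 FPKM, most of it Pdgfrb in MPPs (1.84 against 5.2). The dendritic cell list summed to 6.32 to 8.47 and 9.54 to 15.2 FPKM, most of it Id2. The mast cell and basophil list summed to 484.6 to 565.8 FPKM in HSC libraries and 458.1 to 654.1 in MPP libraries, most of it Srgn, a granule proteoglycan also found in other blood cells (means of 474 and 439). In that list Mcpt8, a basophil protease, was at 0 in all 4 HSC libraries and at 1.37, 4.58, 5.2 and 1.31 FPKM in MPPs. Against a floor of 3 reads over the HSC group it was at least 96.3-fold higher in MPPs. Without MPP replicate 1, 3 or 4 no gene of the list was called higher by limma. Also there, Prg2, an eosinophil granule protein, was at 148 and 87.5 FPKM in MPP replicates 3 and 4 and at 0.103 and 3.24 in replicates 1 and 2. The part of these cells in the differences was not tested.

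The same contrast was made in 2 other sets of WT libraries, in which a pulse of H2B-GFP had marked chromatin and cells were sorted after a 17-day chase, with poly(I:C) ending 15 days before. H2B-GFP is diluted at each division, so the level kept by a cell reflects its number of divisions, and each set had 3 HSC and 3 MPP libraries. The protocol names these mice as Mx1-Cre; Hira fl/fl; Rosa26-M2rtTA; TetOP-H2B-GFP without saying which alleles the WT had, and they drank doxycycline for 6 weeks, so they differ from the total cells in more than the sort. In GFP-high cells 170 of 10851 tested genes (1.57%) were higher in MPPs and 199 (1.83%) lower, and in GFP-low cells 296 of 10675 (2.77%) and 212 (1.99%). Of the 2052 genes that passed in total cells, 1602 were tested in GFP-high cells, and 80% had the same sign there, against 59.4% of genes that had not passed. In GFP-low cells 1604 were tested and 90.6% had the same sign, against 61.7%. Genes past the test with the same sign numbered 255 in GFP-high cells and 372 in GFP-low cells, and 206 were past it in all 3 fits (112 higher in MPPs and 94 lower). GFP-high and GFP-low libraries may share animals, so they are not separate cohorts.

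Several lineage and stem cell genes passed there too, while few or no genes of division did. Slamf1 differed by -2.66 in GFP-high and -2.51 in GFP-low cells (adjusted p = 7.91e-05 and 4.47e-05), Flt3 by 3.00 and 3.08, Apoe by -1.88 and -1.78, Vwf by -2.16 and -2.08, Dntt by 2.80 and 4.75, and Wfdc17 by 3.41 and 3.76, each past the test. Hlf was again higher in MPPs (0.67 and 0.68, adjusted p = 0.0194 and 0.00561), whereas Procr did not pass (0.10 and 0.23). Pf4, which led in total cells, differed by -0.34 in GFP-high cells (adjusted p = 0.528) and -1.93 in GFP-low cells (adjusted p = 0.00222). Of 58 tested mitosis genes 0 passed by limma in GFP-high cells (median 0.04, 2 at an unadjusted p under 0.05) and 2 were lower in GFP-low cells (median -0.21). Of 53 replication genes 0 passed by limma in either (medians 0.01 and -0.00), with 2 and 9 at an unadjusted p under 0.05. Ccnb1 differed by -0.08 and -0.26 (adjusted p = 0.926 and 0.614). Of 14 tested G1 cyclin and Myc genes 1 was lower in each set, Ccnd2 (-0.42 and -0.43, limma adjusted p = 0.0341 and 0.0392). In that list 0 were higher in GFP-high cells and 1 in GFP-low cells, Myc (0.43, adjusted p = 0.0364). Of 29 granulocyte-monocyte genes 6 were higher in MPPs in GFP-high cells (median -0.22) and 10 in GFP-low cells (median 0.47), with 0 lower in either. Cebpa (1.13 and 1.42), Gfi1 (1.45 and 1.46) and Csf3r (1.08 and 1.29) passed in both, while Mpo (-0.87 and 0.39) and Elane (-1.07 and -0.27) passed in neither. Of 18 tested early response genes 0 were higher in MPPs in GFP-high cells and 1 in GFP-low cells (medians 0.13 and 0.06), with 0 lower in either. Whether the difference itself changes between total and GFP-sorted cells was not tested, since they come from separately made tables.

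**Figure D5:**
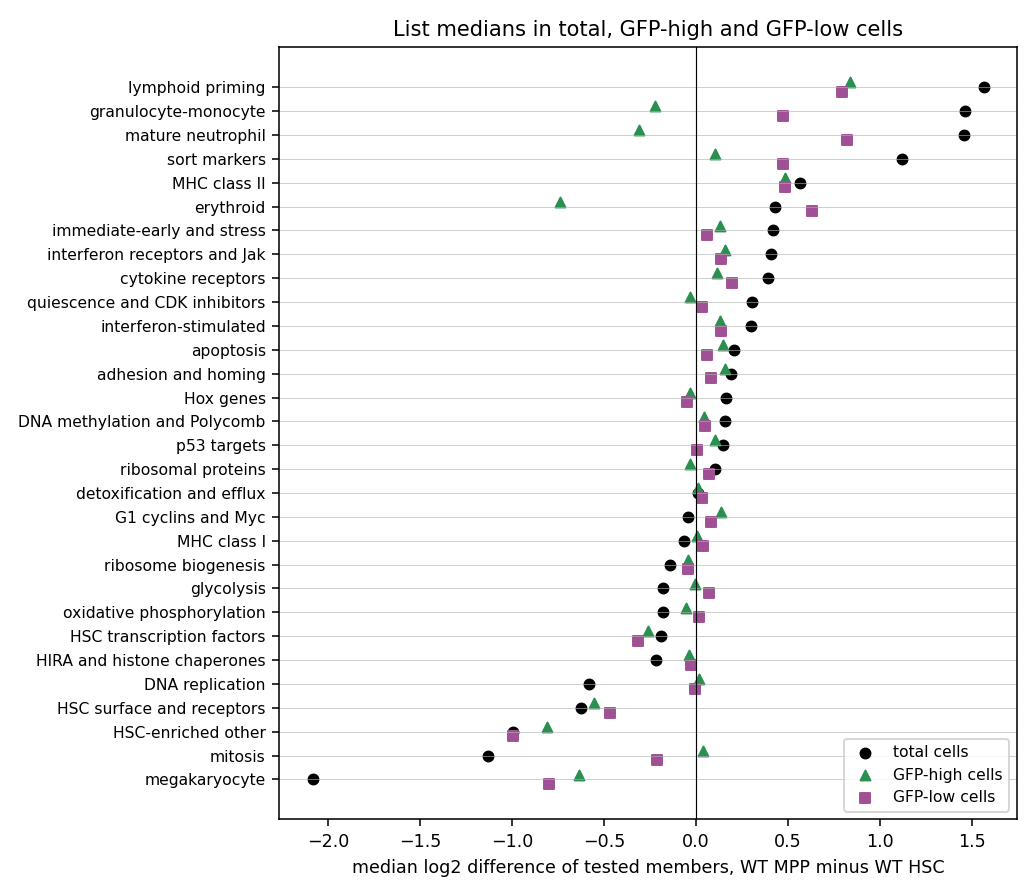
Median log2 difference (WT MPP minus WT HSC) of the tested members of each list in total cells (black circles), GFP-high cells (green triangles) and GFP-low cells (purple squares). HSC-enriched genes lie near -0.99, -0.81 and -0.99 in the 3 sets, while the mitosis median is -1.13 in total cells and 0.04 and -0.21 in the GFP-sorted cells.

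The same contrast was set beside that of mice with Hira deleted (KO, Mx1-Cre; Hira fl/fl). Of 14923 genes tested in a joint fit of the 16 WT and KO libraries, the MPP minus HSC difference differed between KO and WT for 5 (0.0335%) by limma's interaction term, and 1167 had an unadjusted p under 0.05. A fit with the smaller pseudocount of 0.1 called 1. No member of the lists above was among the 5. The list medians in KO were -2.32 for megakaryocyte genes, -0.52 for mitosis, -0.12 for DNA replication and 1.28 for lymphoid priming genes. They share no library with the WT medians of -2.08, -1.13, -0.58 and 1.56, but no list was tested for a difference. The median of the 19 tested early response genes was 0.04 in KO and 0.42 in WT, and this difference was not tested either.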

How the data were processed

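RNA of 4 WT HSC and 4 WT MPP libraries was made by SMART-Seq2 and Nextera XT, per the labels' protocols. The authors deposited FPKM values per gene in a table for each cell type. STAR, DESeq2, HOMER and mm10 are named in the submitters' processing notes without roles or versions. Strand, and how reads shared between paralogs or overlapping genes were counted, are not given in the sources used here. The median ratio to the table's reference was equal in all columns of a table, so the deposited FPKM carry a scaling made within each table.

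The tables were joined by gene ID (24801 genes in both), the 8 columns rescaled together by median-of-ratios over the 17284 genes above 0 in all, and genes with at least 1 FPKM in 4 columns kept. Differences are of log2(FPKM + 1), MPP minus HSC, by limma 3.58.1 (R 4.3.3) with an intensity trend, 2-sided, adjusted by Benjamini-Hochberg over all tested genes, at a threshold of 0.05. This scale understates the change of low genes. With the scale of each library set from low values, whole reads were found for 99.99% of genes (tolerance 0.01 reads). For 23109 of 28437 genes they came from the GENCODE gene length. For the others a length that gave whole reads was searched for, so the 99.99% is partly set by that search. These reads gave the depth of 18.29 to 32.35 M. The GFP-sorted fits asked for 1 FPKM in 3 columns and were matched to the others by gene symbol, and KO and WT were compared by an interaction term over 16 libraries. The fit was tested on simulated data.

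Named were up to 12 leading genes a direction (no overlap, mean log2(FPKM + 1) of 3 or more, no gene models), up to 4 a direction in each of 39 gene lists, the sort markers, the 2 most abundant genes of a list with none past the test, and Hira. Cebpa, Gfi1, Pttg1, the chromosome 11 neighbours, and other genes given with values outside that rule were chosen after their values were seen. The comparison, lists and rule were chosen with earlier results of these data known. Alternatives covered scaling, pseudocount, filter, trend, weights, limma-voom on recovered reads, a joint fit, the replicate block and each library left out. Some genes are not reported here.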

Additional observations from a re-analysis of the deposited data

Results flagged for a closer look

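Of 376 sets of 4 values examined, 15 held a library whose gap to the nearest other exceeded the 95% critical value of Dixon's test for 4 samples, where chance gives about 5%. In WT MPP replicate 1 these were Wfdc17 at 603 FPKM, Emb at 142, Aldh1a1 at 2.83, Tob1 at 7.81 and the mean log2(FPKM + 1) of the interferon receptor and Jak list at 4.06. Other MPP libraries set apart were replicate 4 for Flt3 (60.4 FPKM) and replicate 2 for Mgst1 (34.9). In WT HSC replicate 1 they were Apoe at 262 FPKM, Hlf at 22.4, Gfi1b at 39.9 and Chaf1a at 8.97. In HSC replicate 2 they were Rps9 at 491 FPKM, Ring1 at 1.45 and the MHC class II list level at 4.2, and in HSC replicate 3 Rhd at 5.08.

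For 5 genes the MPP minus HSC difference differed between KO and WT by limma's interaction term, each given here as KO minus WT on the log2(FPKM + 1) scale. Tmem158 differed by -1.31 ± 0.21 (SE, adjusted p = 0.032): it was at 5.18 to 7.08 FPKM in WT MPPs and at 1.25 to 1.71 in KO MPPs. Mir3060 differed by 1.42 (adjusted p = 0.017) and was at 0 in all 4 KO HSC libraries. The transcripts 1700003C15Rik (-1.71), Gm43643 (-2.62) and RP23-92D22.3 (-2.68) were higher in MPPs than in HSCs in WT. Gm43643 was at 8.84 to 11.9 FPKM in WT MPPs and at 0.0955 to 2.97 in KO MPPs.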

How the results depend on the processing

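Of 144 named genes past the test, 104 passed in all 21 alternative settings and 0 changed sign. The count of 2052 genes ranged from 1466 to 1964 with 1 library left out (higher in MPPs 672 to 945, lower 684 to 1029, at least 2-fold 472 to 550). Without MPP replicate 2, 672 genes were higher, and without HSC replicate 4, 684 were lower. Genes at least 2-fold apart numbered 346 when 1 FPKM was asked of all 8 libraries (fewer genes tested), and 937 by limma-voom on recovered reads, where the cause was not tested. The genes that differed between KO and WT numbered 1 with a pseudocount of 0.1 and 0 with the replicate block (the cause was not tested). Taking genes listed in 1 table as 0 in the other, chosen after seeing the data, gave 2063. Same-numbered HSC and MPP libraries had deviations correlated at 0.323, 0.066, 0.179 and 0.173, and HSC replicate 2 correlated best with MPP replicate 4 (0.261), so the numbers were not taken to pair the samples. The fit with the replicate block called 2624 genes. Of 714 list medians 70 moved by more than 1 SD. Genes under 1 FPKM in most libraries were not tested.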
